A study of Mus musculus with 15 samples.

Results

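Left ventricular cardiomyocytes collected 7 days after iron-ion exposure were compared with cardiomyocytes of sham-exposed mice. The arrays were chosen by their titles alone: 2 iron day 7 arrays and 3 sham arrays, which together are 5 of the 15 arrays of the series. All mice were adult C57Bl/6NT males 8 to 9 months old. The iron group received 15 cGy (0.15 Gy) to the whole body as iron ions of 1 GeV per nucleon, with a linear energy transfer of about 151 keV per µm, at 0.05 Gy per min. The sham group consisted of 2 arrays from day 1 and 1 array from day 3. Sham cells from day 7 were not analysed here, so exposure and the day of collection cannot be told apart in this comparison. The labels give no hour of collection. Nothing in them ties the arrays to separate animals either, so p-values measure the spread between arrays, which may be technical. The other 10 arrays came from cells 1, 3, 14 and 28 days after the same iron exposure. They entered the fit to estimate the spread, and they serve below for the comparison of day 7 with other days.

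Cells were released with collagenase and selected along a calcium gradient, and the labels put calcium-tolerant cardiomyocytes above 90 percent, with possibly a few inflammatory or endothelial cells. Ventricular cardiomyocytes contract through calcium released from the sarcoplasmic reticulum, and they are coupled electrically and mechanically at the intercalated disc. They also carry a circadian clock. In that clock, CLOCK and BMAL1 (the product of Arntl) activate genes through E-box sequences, and the PER and CRY proteins made from some of these genes shut the activators off again. REV-ERB and ROR factors act on Arntl through a separate element, and the factors DBP, TEF, HLF and NFIL3 pass the rhythm on through D-boxes. Clock transcripts in the heart normally rise and fall over the day. Small nucleolar RNAs (snoRNAs) are short RNAs, mostly cut from introns of host genes, that guide chemical modification of ribosomal RNA: box C/D snoRNAs guide methylation and box H/ACA snoRNAs guide pseudouridylation.

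The signals were on a log2 scale, and 1 probe set was kept for each of 19937 genes, the brightest over the 15 arrays. The 9969 genes with the higher mean signal were tested with limma, and adjusted p-values are Benjamini-Hochberg values over all of them, with 0.05 as the threshold. Array medians lay between 4.959 and 5.134. The number of arrays limits the precision: the median standard error of a difference was 0.125. The day 7 arrays differed from each other by a median of 0.179 per gene (r = 0.9698 across genes), the largest median difference of any pair within an iron group, and the iron day 28 arrays by 0.0726, the smallest. The labels do not say whether the day 28 arrays come from separate mice. With their mean used as 1 array, 274 genes passed against sham in place of 459. As a check of the cell type, Tnnt2, cardiac troponin T, read 12.35 and 12.44 in the day 7 arrays and 12.42 to 12.44 in sham, and the 14 cardiomyocyte markers had a median difference of -0.04. In bulk RNA, fewer cells of a type and less RNA per cell cannot be told apart.

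At 7 days after iron exposure, among the genes that passed, the clock genes, the snoRNAs and a set of genes of other heart cells stood furthest from sham. Of the genes tested, 459 passed (4.6%), 193 of them higher (1.94%) and 266 lower (2.67%) than in sham. An unadjusted p below 0.05 in limma was found for 2396 of the 9969 genes. Counts of unadjusted p-values against sham below are to be read against that share. Differences above 2-fold were found in 58 higher and 9 lower genes. Among genes that passed with no overlap between the groups' arrays, the largest falls were in clock genes. Of the 15 largest rises among them, 11 were in short structured RNAs. The others of those 15 were Fcna, Timd4, Arntl and Spon2. The 9969 genes were kept by their mean over all 15 arrays, and 14 of the genes that passed, all higher at day 7, would have fallen below that limit on the 13 arrays other than day 7. Of the named genes these were Timd4, Spon2, Msr1 and Mir212, which were tested because day 7 was high. After median centring the arrays, 187 genes were higher and 924 lower, against 42.0 percent higher among the calls as reported, so the split between directions depends on the scaling. Without the first day 7 array 46 genes passed. Without the first day 1 sham array 138 passed, without the second 159, and 265 without either iron day 28 array. Of 114 named genes that passed, 86 lost their call without the first day 7 array and 39 without the second, and 67 and 63 without the first and second day 1 sham array. The 25 that kept it without each of the 15 arrays in turn were 6 clock genes (Ciart, Per2, Per3, Dbp, Tef, Nfil3), the clock target Usp2, the ribosomal protein gene Rplp1, the host genes Gas5 and Snhg15, and 15 short RNAs named below.

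**Figure D1:**
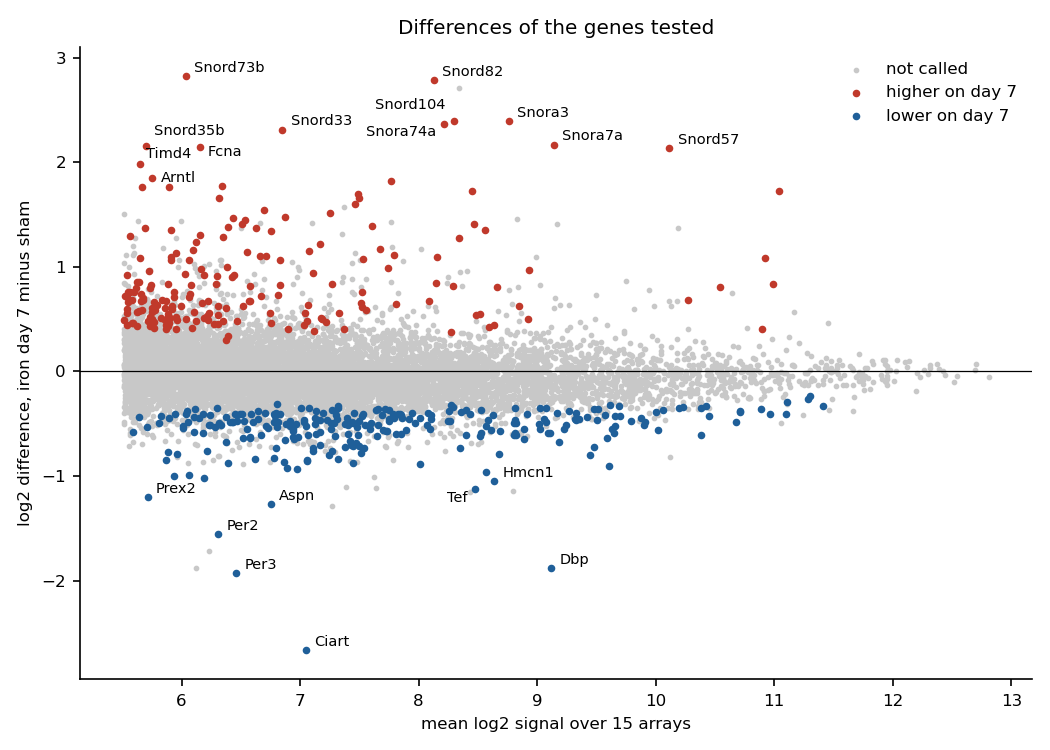
Difference in log2 signal between iron day 7 and sham (vertical axis) against the mean log2 signal over 15 arrays (horizontal axis), 1 point per tested gene. Red and blue points are the 193 higher and 266 lower genes that passed, grey points did not, and the named genes show the fall of Ciart by 2.67 and the rise of Snord82 by 2.79.

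Clock repressors were lower at day 7. Of 9 tested genes of the repressor arm, 7 fell (77.8%, against 2.67% of all genes) and none rose. The median difference of the 9 was -0.62, against -0.03 over all genes tested. Ciart, a repressor of CLOCK and BMAL1 also called CHRONO, read 5.12 and 5.89 in the day 7 arrays and 8.35, 8.42 and 7.75 in sham (here and below the day 1 sham arrays come first and the day 3 sham array last). Both day 7 arrays lay far below all 3 sham arrays. Ciart fell by 2.67 on the log2 scale (SE 0.255, limma adjusted p = 0.000228), a 6.35-fold difference, and its other probe set fell by 2.30. Per3 read 4.93 and 5.35 against 6.89, 7.31 and 7.01, and fell by 1.93 (SE 0.163, limma adjusted p = 9.39e-05). Per2 read 5.27 and 5.58 against 6.85, 7.01 and 7.07, and fell by 1.55 (SE 0.167, limma adjusted p = 0.000662). The period genes encode the proteins that carry the negative feedback, and no array of these genes crossed from one group into the range of the other.

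Smaller falls were found in the rest of the repressor arm. Bhlhe41, which encodes the E-box repressor DEC2, read 6.33 and 6.56 at day 7 and 7.40, 7.54 and 6.96 in sham, and fell by 0.85 (limma adjusted p = 0.0126). Cry2, a partner of the period proteins, fell by 0.62 (6.12 and 6.20 against 6.84, 6.80 and 6.71, limma adjusted p = 0.0161). Per1 fell by 0.57 (limma adjusted p = 0.0372). Nr1d2, which encodes the nuclear receptor REV-ERB beta, fell by 0.41 (limma adjusted p = 0.031). Its relative Nr1d1 read 8.41 and 8.65 at day 7 against 9.37, 9.20 and 8.83 in sham, a difference of -0.60 that did not pass (SE 0.301, limma adjusted p = 0.244). Bhlhe40 differed by 0.12 (limma adjusted p = 0.778). Cry1, the other cryptochrome, had too low a signal to be tested and read 5.14 and 5.12 at day 7 against 5.14, 5.26 and 5.09 in sham, with overlapping groups.

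The activator and the output factors moved in both directions. Arntl read 7.26 and 6.77 at day 7 and 5.12, 4.80 and 5.59 in sham. It was higher in both day 7 arrays than in any sham array and rose by 1.85 (SE 0.29, limma adjusted p = 0.00691), a 3.59-fold difference. Its partner Clock read 8.42 and 8.22 against 8.30, 8.21 and 8.20, a difference of 0.08 (limma adjusted p = 0.722). Among 4 output factors that bind D-boxes, Dbp read 7.58 and 8.16 against 9.93, 9.82 and 9.51 and fell by 1.88 (SE 0.156, limma adjusted p = 9.39e-05), and Tef read 7.51 and 7.73 against 8.70, 8.97 and 8.56 and fell by 1.13 (SE 0.152, limma adjusted p = 0.00276). Nfil3, the repressor that competes with them for the D-box, read 6.74 and 6.70 against 5.77, 5.77 and 5.83 and rose by 0.92 (SE 0.108, limma adjusted p = 0.00118). The activators of the D-box were thus lower and its repressor higher in every day 7 array than in every sham array. Hlf read 5.92 and 6.16 against 6.68, 6.89 and 6.25 and did not pass (-0.57, limma adjusted p = 0.183). Rora, a receptor that activates Arntl, differed by -0.26 (limma adjusted p = 0.201). Of 4 tested genes whose products modify or degrade clock proteins (Csnk1d, Csnk1e, Btrc and Fbxw11), none passed at the adjusted threshold in limma and 1 had an unadjusted p below 0.05, Csnk1e at -0.29.

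**Figure D2:**
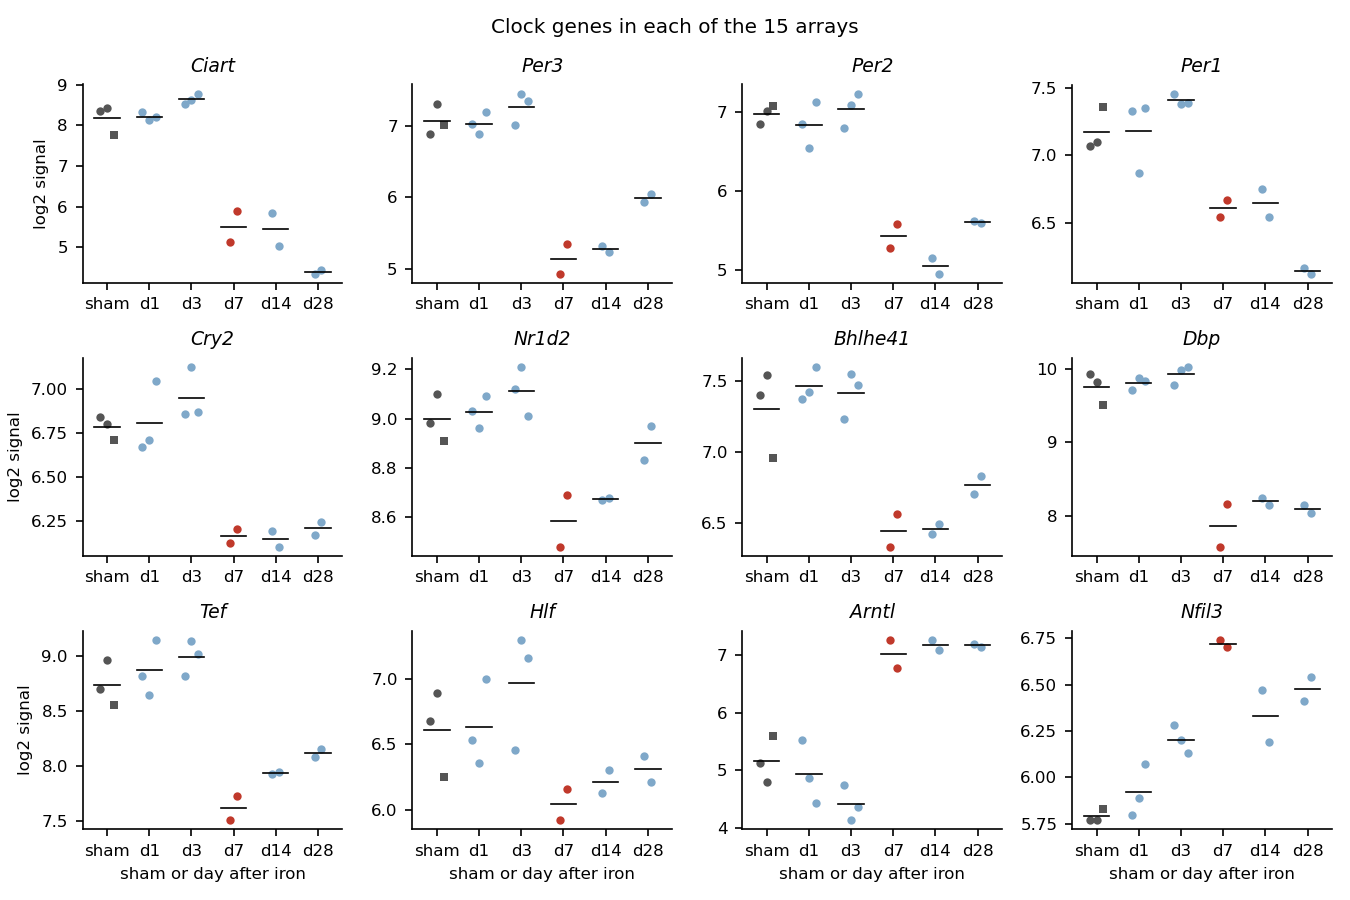
Log2 signal of clock genes in each of the 15 arrays (vertical axis), grouped by sham and by day after iron exposure (horizontal axis), with a short line at each group mean. Grey points are sham (the square is the day 3 sham array), red points iron day 7 and blue points the other iron days. Arntl at day 7 reads 7.26 and 6.77, above all sham arrays, and Per3 reads 4.93 and 5.35, below them.

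In all, 2 of 20 tested clock genes rose and 9 fell, where 1.94% of all genes rose and 2.67% fell. Without the first day 7 array 6 of the 20 passed. The same clock genes were low or high on other days too. Mean Ciart signal was 8.212 at iron day 1 and 8.639 at day 3, near the sham mean, and 5.443 at day 14 and 4.391 at day 28. Mean Arntl signal was 4.941 and 4.421 at iron days 1 and 3, and 7.171 and 7.161 at days 14 and 28. Arrays of days 1 and 3 thus lay on the sham side and arrays of days 14 and 28 on the day 7 side. Whether the hour of collection differed between these days was not tested, since the labels do not give it.

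Known targets of the clock in heart and other tissues were lower in part. Of 16 tested, 5 fell (31.2%, against 2.67% of all genes) and none rose, with a median of -0.16. Usp2, a deubiquitinase whose transcript follows the clock in many tissues, read 8.74 and 9.20 at day 7 and 9.81, 9.91 and 9.91 in sham, and fell by 0.91 (SE 0.113, limma adjusted p = 0.00155). Wee1, the kinase that restrains entry into mitosis, read 5.99 and 6.33 against 7.05, 7.26 and 6.93 and fell by 0.92 (limma adjusted p = 0.0253). Ppargc1b, a coactivator of mitochondrial genes, read 6.57 and 6.65 against 7.58, 7.43 and 7.33 and fell by 0.84 (limma adjusted p = 0.0105). The groups did not overlap in any of these. Tcap, the titin cap protein of the Z-disc, fell by 0.80 (8.45 and 9.10 against 9.50, 9.83 and 9.39, limma adjusted p = 0.0313), and Tspan4, a tetraspanin, fell by 0.72 (limma adjusted p = 0.0222). Other targets named for the heart did not pass: Klf15 differed by -0.14, Kcnip2 by -0.03 and Nampt by -0.07. Pdk4, which restrains glucose oxidation, differed by 0.75 (limma adjusted p = 0.19). Usp2 alone of these targets kept its call without each array in turn.

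The promoters of the clock genes at the ends of the range are shown to let the elements named above be seen. The RefSeq windows on the GRCm38 mouse genome run from 250 bases before to 50 bases after a gene's start, and 19 of the clock genes had 28 such windows. The motifs below were searched on both strands, and they do not overlap one another in these windows: the E-box CACGTG, the D-box TTATGTAA and the half-site TAGGTCA bound by ROR and REV-ERB. Ciart (chr3:95882179-95882478, minus strand) holds 3 E-boxes in capitals, beginning 116, 58 and 44 bases before the start. Per3 (chr4:151044616-151044915, minus strand) holds D-boxes beginning 205 and 158 bases before the start. Arntl (chr7:113207261-113207560, plus strand) has the half-site 30 bases after 1 of its 2 starts, and Nfil3 (chr13:52980990-52981289, minus strand) has it 12 bases before the start, read on the opposite strand as TGACCTA.
Ciart: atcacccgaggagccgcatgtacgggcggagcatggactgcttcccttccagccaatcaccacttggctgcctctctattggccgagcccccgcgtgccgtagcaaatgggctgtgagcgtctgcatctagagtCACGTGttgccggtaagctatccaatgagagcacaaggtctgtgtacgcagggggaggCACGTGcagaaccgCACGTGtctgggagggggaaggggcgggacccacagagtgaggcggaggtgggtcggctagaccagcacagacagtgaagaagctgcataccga
Per3: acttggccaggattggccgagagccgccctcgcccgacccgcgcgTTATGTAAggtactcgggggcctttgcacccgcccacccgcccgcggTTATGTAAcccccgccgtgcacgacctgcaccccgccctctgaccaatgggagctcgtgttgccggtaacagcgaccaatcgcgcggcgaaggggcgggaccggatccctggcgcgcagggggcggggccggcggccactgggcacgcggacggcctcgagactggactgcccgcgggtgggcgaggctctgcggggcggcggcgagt
Arntl: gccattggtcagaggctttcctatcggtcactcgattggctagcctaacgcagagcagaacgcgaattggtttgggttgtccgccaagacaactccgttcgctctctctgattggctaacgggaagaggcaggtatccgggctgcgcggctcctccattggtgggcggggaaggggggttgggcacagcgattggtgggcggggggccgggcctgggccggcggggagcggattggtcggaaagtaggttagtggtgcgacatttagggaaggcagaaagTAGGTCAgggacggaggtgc
Nfil3: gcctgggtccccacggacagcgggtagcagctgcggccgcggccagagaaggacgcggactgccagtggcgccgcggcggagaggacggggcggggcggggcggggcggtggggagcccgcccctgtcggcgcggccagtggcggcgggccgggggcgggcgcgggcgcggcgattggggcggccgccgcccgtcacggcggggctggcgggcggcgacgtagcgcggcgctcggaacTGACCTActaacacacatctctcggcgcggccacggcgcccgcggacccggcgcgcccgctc
The E-box stood in 6 of the 28 clock windows and in 7.15% of all 32851 windows, in Bhlhe41, Ciart, Cry1, Per1 and Tef. The D-box stood in 1 clock window, that of Per3, and in 0.938% of all windows. The half-site stood in 2 clock windows, those of Arntl and Nfil3, and in 2.61% of all. The strongly lowered Dbp held none of the 3 motifs in its window. Per2 and Bhlhe40 were not matched. A match is a description of the letters, and factor binding was not measured.

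SnoRNAs were higher at day 7 as a group. Of 53 on the array 27 were tested, and 21 of them rose (77.8%, against 1.94% of all genes) and none fell, with a median difference of 1.35. Of the 27, 1 would have fallen below the signal limit on the 13 arrays other than day 7. Among box C/D snoRNAs 9 of 12 rose (median 1.69), and among box H/ACA snoRNAs 11 of 14 (median 1.27). Snord82, a box C/D snoRNA, read 9.39 and 9.49 at day 7 and 6.55, 6.49 and 6.93 in sham, and rose by 2.79 (SE 0.453, limma adjusted p = 0.00773), a 6.91-fold difference. Snord49b read 8.29 and 8.20 against 6.60, 6.48 and 6.84, and rose by 1.60 (SE 0.154, limma adjusted p = 0.000228). Snora21, a box H/ACA snoRNA, read 9.33 and 9.29 against 7.98, 7.91 and 8.00, and rose by 1.35 (SE 0.15, limma adjusted p = 0.000873). In all 3 the day 7 arrays lay close to each other and above every sham array.

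Further snoRNAs rose by more than 2 on the log2 scale. Snora3 read 9.57 and 9.98 at day 7 and 7.43, 7.18 and 7.54 in sham (2.39, limma adjusted p = 0.00788), and its other probe set rose by 3.22. Snord104 read 8.89 and 9.55 against 6.82, 6.71 and 6.95 (2.39, limma adjusted p = 0.00376). Snord57, at the bright end, read 11.19 in both day 7 arrays against 9.05, 8.82 and 9.31 (2.13, limma adjusted p = 0.0276). Rises of 2.37 and 2.17 were found in the H/ACA snoRNAs Snora74a and Snora7a, and of 2.31 and 2.16 in the C/D snoRNAs Snord33 and Snord35b. Snora16a, Snora44 and Snora69 rose by 1.55, 1.47 and 1.44, Snord15b by 1.24 and Gm12238, annotated as a snoRNA without a family name, by 1.07. Not every snoRNA was higher. Snord14e read 10.36 and 9.11 against 9.70, 9.40 and 10.17 (-0.02, limma adjusted p = 0.98), and its groups overlapped. Snora31, Snora23, Snord55 and Snord8 differed by 0.18, 0.23, 0.25 and 0.44 and did not pass, nor did Snora75 (1.20, limma adjusted p = 0.0527). Without the first day 7 array 11 of the 27 passed, and the median was 1.33. Against the day 3 sham array alone 9 passed.

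Other short structured RNAs were also higher: 9 of 13 tested rose (69.2%, against 1.94% of all genes) and none fell, with a median of 0.96. Vaultrc5, an RNA of vault particles, read 8.31 and 8.82 at day 7 and 7.12, 6.56 and 6.55 in sham, and rose by 1.82 (SE 0.259, limma adjusted p = 0.00343). The 5S ribosomal RNA gene n-R5s136 read 8.14 and 8.45 against 6.74, 6.85 and 6.32 and rose by 1.66 (limma adjusted p = 0.00626). Snord73b, listed here as a small nuclear RNA by its annotated type, read 6.94 and 7.59 against 4.30, 4.07 and 4.94 and rose by 2.83 (SE 0.534, limma adjusted p = 0.0149). These RNAs come from differing kinds of particle. Rpph1, the RNA of ribonuclease P, rose by 1.08 (limma adjusted p = 0.00773), and Rmrp, the RNA of the related ribonuclease MRP, rose by 0.68 (limma adjusted p = 0.00788). Rn7sk, which holds back the elongation factor P-TEFb, read 12.65 and 12.72 against 12.64, 12.68 and 12.69 and differed by 0.01 (SE 0.0391, limma adjusted p = 0.864). Without either day 7 array 5 of the 13 passed.

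Most tested host genes of the snoRNAs differed less than the snoRNAs. By position, strand not compared, all 27 tested snoRNAs lay inside an annotated gene, and 13 of them had a host that was itself tested (12 hosts). The median difference of these 13 snoRNAs was 1.20 and that of their hosts 0.08. Snord82 lies in Ncl, which encodes nucleolin and differed by -0.06 (SE 0.0821, limma adjusted p = 0.725). Snora3 lies in Rpl27a (0.19, limma adjusted p = 0.278), Snord57 in Nop56 (-0.22, limma adjusted p = 0.245) and Snora21 in Rpl23 (0.17, limma adjusted p = 0.292). In each of these pairs the snoRNA rose by more than 1 and the host did not pass. Among the 12 hosts 2 passed: Gas5, the host of Snord47, rose by 1.72 (9.00 and 9.28 against 7.41, 7.08 and 7.77, limma adjusted p = 0.00729), and Chd8, the host of Snord8, fell by 0.31 (limma adjusted p = 0.0462). Gas5 has 4 probe sets, and its other 3 differed by between -0.87 and -0.18, so its rise belongs to the brightest probe set. On a separate list of known snoRNA host genes, 4 of 20 tested rose and none fell (20.0%, against 1.94% of all genes): Gas5, Snhg15 (5.94 and 6.10 against 5.10, 5.41 and 5.08, a rise of 0.83, limma adjusted p = 0.00788), Rpl10 and Rps12. The list's median was 0.09. Snord47 itself read 6.77 and 7.28 against 5.33, 4.82 and 5.60 and rose by 1.77.

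**Figure D3:**
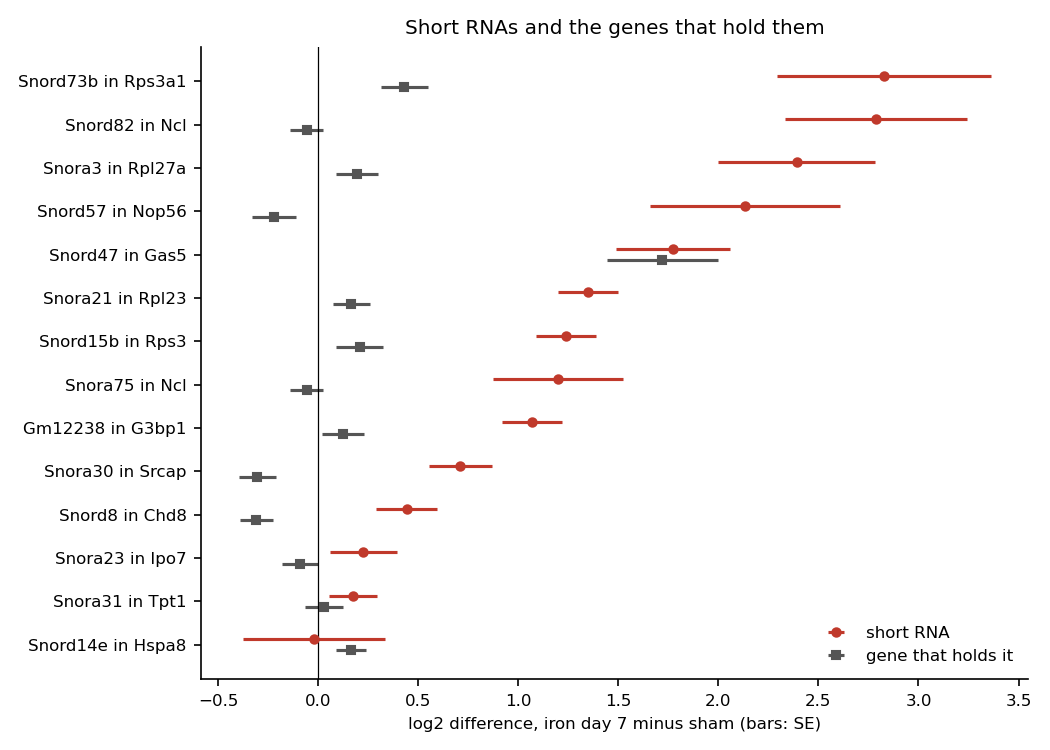
Difference in log2 signal between iron day 7 and sham (horizontal axis, bars are standard errors) for 13 snoRNAs and Snord73b (red circle) and for the tested gene in which each lies (grey square), 1 row per pair. Snord82 lies at 2.79 and its host Ncl at -0.06, and most hosts lie near 0.

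Proteins of the snoRNA particles and of ribosomes moved little. Of 14 tested genes for snoRNA particle proteins none passed in limma, and Nop10 alone had an unadjusted p below 0.05 (0.37, limma adjusted p = 0.103). Of 35 ribosomal protein genes 3 rose (8.57%, against 1.94% of all genes) and none fell, with a median of 0.15. Rplp1, a protein of the ribosomal stalk, read 10.89 and 11.06 at day 7 and 10.24, 10.17 and 10.09 in sham and rose by 0.80 (SE 0.11, limma adjusted p = 0.00289). Rps12 rose by 0.61 and Rpl10 by 0.41 (limma adjusted p = 0.0459 and 0.0113), and both are also among the host genes above. The 7 probe sets of Rps12 differed by between -0.09 and 0.86, and the 5 of Rpl10 by between 0.14 and 0.41. With all probe sets tested, 1 of each gene passed, and in Rps12 it was not the one kept.

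Of 37 tested microRNA genes 4 rose (10.8%, against 1.94% of all genes) and 1 fell (2.7%, near the 2.67% of all genes). These probe sets read the gene locus, and mature microRNAs were not measured apart from their precursors. Among the genes that rose, Mir212 was tested only because day 7 was high. Mir212, made with miR-132 from 1 precursor and known for its part in cardiomyocyte growth, read 6.05 and 5.77 at day 7 and 5.24, 5.41 and 4.95 in sham (0.71, SE 0.163, limma adjusted p = 0.0301). Mir568 read 8.51 in both day 7 arrays and 8.98, 9.11 and 9.10 in sham, and fell by 0.56 (limma adjusted p = 0.0248). Mir673 rose by 0.62 (limma adjusted p = 0.0281), Mir320 by 0.50 (limma adjusted p = 0.0363) and Mir99b, named after its value was seen, by 0.63 (limma adjusted p = 0.0371). The mature sequences of 4 of these 5 genes, all but Mir320, were matched in RefSeq (GRCm38) and are printed with the seed, bases 2 to 8, in capitals.
miR-212-5p: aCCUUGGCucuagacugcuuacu
miR-212-3p: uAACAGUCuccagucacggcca
miR-673-5p: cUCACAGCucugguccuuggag
miR-673-3p: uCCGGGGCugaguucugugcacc
miR-99b-5p: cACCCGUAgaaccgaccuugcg
miR-99b-3p: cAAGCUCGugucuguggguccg
miR-568: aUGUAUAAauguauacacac
No seed is shared between the sequences printed. No microRNA gene rose without the first day 7 array, without the first day 1 sham array or without the day 3 sham array.

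Of 8 tested markers of mesothelium and epicardium, the layer that covers the heart, 2 rose at day 7 (25.0%, against 1.94% of all genes). All 8 differences lay above 0, with a median of 1.12. Of the 8, 1 would have fallen below the signal limit on the 13 arrays other than day 7, so it was tested because day 7 was high. Upk3b, a uroplakin of mesothelial cells, read 10.05 and 9.36 at day 7 and 8.42, 7.82 and 8.64 in sham, and rose by 1.41 (SE 0.251, limma adjusted p = 0.0113). Wt1, a transcription factor of the epicardium, read 7.49 and 7.04 against 6.40, 6.14 and 6.80, and rose by 0.82 (SE 0.192, limma adjusted p = 0.0316). In both genes the first day 7 array was the highest of the 5 and the day 3 sham array the highest of sham. Muc16 read 7.38 and 6.58 against 5.15, 5.17 and 6.31 (1.43, limma adjusted p = 0.0582), and the keratin Krt8 read 7.75 and 7.03 against 6.44, 5.78 and 8.16, with overlapping groups. Without the day 3 sham array 7 of the 8 passed, and without the first day 7 array none did. Of all 9969 genes, 413 passed without the day 3 sham array. The marker score is the mean log2 signal of the tested markers after each gene was centred on its mean over the 15 arrays. It was 1.49 and 0.764 at day 7 and -0.0314, -0.567 and 0.781 in sham. The day 3 sham array thus lay above the second day 7 array.

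Genes of macrophages made up part of the largest rises. Fcna, a ficolin secreted by macrophages, read 8.71 and 7.67 at day 7 and 5.46, 5.70 and 6.98 in sham, and rose by 2.14 (SE 0.434, limma adjusted p = 0.019). Timd4, a receptor for dying cells on resident macrophages, read 8.09 and 7.04 against 5.34, 5.19 and 6.23, and rose by 1.98 (limma adjusted p = 0.0217). In Fcna and Timd4 the first day 7 array was about 1 higher than the second. Timd4, and Msr1 below, were tested only because day 7 was high. Vsig4, a complement receptor of resident macrophages, rose by 1.41 (limma adjusted p = 0.0351), the scavenger receptor Msr1 by 1.29 (limma adjusted p = 0.0441) and the chemokine Ccl6 by 1.70 (limma adjusted p = 0.0399). These 3 genes did not pass without either day 1 sham array. Nor did they pass without either iron day 28 array, which enters only the estimate of the spread. Of the 16 tested markers on the list of macrophages and monocytes 1 rose (6.25%, against 1.94% of all genes): C1qc, a chain of complement C1q, read 9.43 and 8.90 against 8.18, 7.88 and 7.91 (1.17, limma adjusted p = 0.045). The list's median was 0.52, with 15 of 16 above 0. Csf1r, the receptor that macrophages need to survive, read 8.27 and 7.57 against 7.65, 7.35 and 7.20 (0.52, limma adjusted p = 0.238). The marker score was 1.26 and 0.746 at day 7 and 0.556, 0.235 and 0.540 in sham. Fcna and Timd4 did not pass without the first day 7 array or without either day 1 sham array, and C1qc did not pass without either day 7 array or without any 1 of the sham arrays.

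Genes of antigen presentation and of inflammatory signalling were raised in part. Of 8 tested genes of MHC class II 2 rose (25.0%, against 1.94% of all genes), and all 8 lay above 0. H2-Aa read 9.77 and 8.83 at day 7 and 8.28, 7.74 and 8.53 in sham (1.12, limma adjusted p = 0.0276), and H2-Eb1 rose by 0.99 (limma adjusted p = 0.0329). The class II score differed widely between the day 7 arrays, at 1.28 and 0.497, against 0.269, -0.0194 and 0.461 in sham. Of 21 tested genes of NF-kB and cytokine signalling 3 rose (14.3%, against 1.94% of all genes). Nfkbia, the inhibitor of NF-kB and itself a target of it, rose by 0.76 (8.36 and 8.06 against 7.33, 7.36 and 7.64, limma adjusted p = 0.0178), Bcl3 by 0.79 (limma adjusted p = 0.019) and Relb by 0.44 (limma adjusted p = 0.0484). Of 19 tested interferon-response genes 2 rose (10.5%, against 1.94% of all genes): Irf1 by 0.83 (limma adjusted p = 0.0234) and the peptide transporter Tap1 by 0.83 (limma adjusted p = 0.0218). None of the class II, NF-kB or interferon genes passed without the first day 7 array, and no class II gene did without either day 1 sham array. Ighm, the heavy chain of IgM and a marker of B cells, read 6.65 and 6.44 against 6.01, 6.03 and 5.90 and rose by 0.57 (limma adjusted p = 0.0119).

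**Figure D4:**
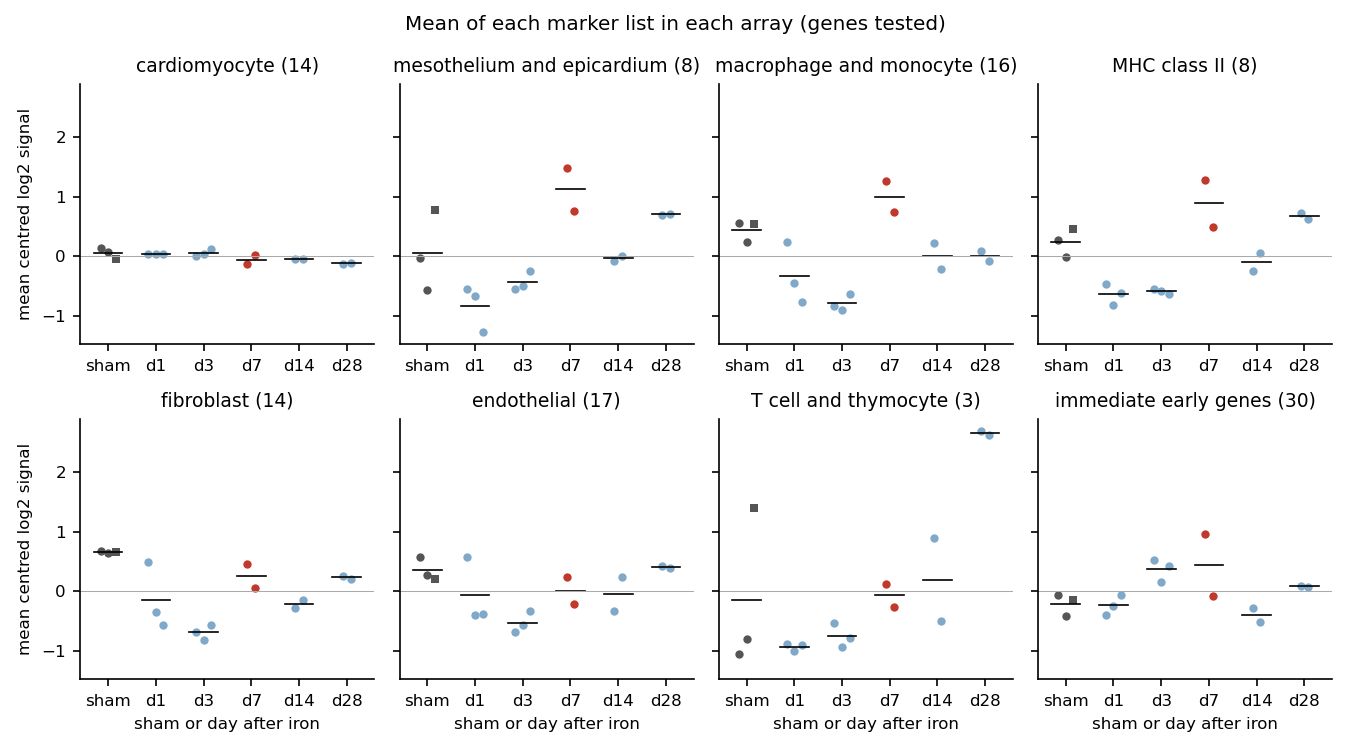
Mean centred log2 signal of the tested genes of each marker list (vertical axis, number of genes in brackets) in each of the 15 arrays, grouped by sham and by day after iron exposure, with a line at each group mean. Grey points are sham (the square is the day 3 sham array), red points iron day 7 and blue points the other iron days. The mesothelium score at day 7 is 1.49 and 0.764, and the macrophage score 1.26 and 0.746.

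Other cell types gave few calls. None of 14 fibroblast markers passed in limma (median -0.29, 3 with an unadjusted p below 0.05). None of 17 endothelial markers passed (median -0.44, 4 with an unadjusted p below 0.05), nor any of 10 markers of pericytes and smooth muscle (median -0.53, 3 such genes). The endothelial score was 0.241 and -0.22 at day 7 and 0.571, 0.278 and 0.21 in sham. Of 14 cardiomyocyte markers 1 fell (7.14%, against 2.67% of all genes), Ryr2, at -0.33. None of the 10 neutrophil markers had enough signal to be tested. None of 3 tested erythroid markers passed in limma, though all 3 lay below 0 (median -1.71, 1 with an unadjusted p below 0.05). The erythroid score was 0.529 and -0.999 at day 7 and 0.355, 2.3 and 1.38 in sham, so the groups overlapped. Of 3 tested T cell markers none passed and none had an unadjusted p below 0.05, and the score was 0.128 and -0.267 at day 7 and -1.05, -0.807 and 1.39 in sham, with the day 3 sham array apart from the others. The part that these other cells have in the differences from sham was not tested.

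Genes of the early stress response were uneven between the day 7 arrays. All 30 tested immediate early genes lay above 0, with a median of 0.61, but in limma none passed, while an unadjusted p below 0.05 was found for 20. Fos read 9.84 and 7.95 at day 7 and 8.25, 7.64 and 7.94 in sham (0.95, limma adjusted p = 0.196). Atf3 read 10.60 and 9.13 against 8.87, 7.97 and 8.54 (1.41, limma adjusted p = 0.109). In both the first day 7 array was far above sham and the second near it. The score of the list, formed like the marker score, was 0.964 and -0.0821 at day 7 and -0.0658, -0.423 and -0.148 in sham. With the second day 7 array alone the median of the 30 was 0.12.

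Heat-shock and cold-response genes gave 1 call in each direction among 7 tested temperature-responsive genes. That is 14.3% each way, against 1.94% higher and 2.67% lower among all genes. Hsph1, an HSP110 chaperone, read 8.69 and 8.03 at day 7 and 7.07, 7.03 and 7.76 in sham and rose by 1.08 (SE 0.25, limma adjusted p = 0.0309). Rbm3, a cold-induced RNA-binding protein, read 8.86 and 8.93 against 9.38, 9.39 and 9.44 and fell by 0.51 (SE 0.0934, limma adjusted p = 0.0135). Hspa1a read 11.20 and 10.62 against 9.58, 9.47 and 9.57 and Dnajb1 9.93 and 9.01 against 7.84, 8.00 and 8.17. Their groups did not overlap, and their differences of 1.37 and 1.46 did not pass (limma adjusted p = 0.121 and 0.128). None of the 7 passed without the first day 7 array, and Hsph1 did not pass without either day 1 sham array.

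Of 20 tested genes of iron handling 2 rose (10%, against 1.94% of all genes). Slc39a8, the metal transporter ZIP8, read 8.21 and 7.51 at day 7 and 6.12, 5.73 and 6.76 in sham and rose by 1.66 (SE 0.272, limma adjusted p = 0.00788). Hmox1, heme oxygenase 1, read 7.56 and 6.87 against 6.16, 5.84 and 6.37 and rose by 1.09 (SE 0.227, limma adjusted p = 0.0215). The list's median was -0.06. Sdf2l1, an endoplasmic reticulum protein, rose by 1.00 (7.15 and 7.08 against 6.15, 5.77 and 6.44, limma adjusted p = 0.00789). It was the only 1 of 24 tested genes of the unfolded protein response to pass (4.17%, against 1.94% of all genes). Of 17 tested glucocorticoid targets 2 rose (11.8%, against 1.94%) and 1, the clock gene Per1, fell (5.88%, against 2.67%). Ddit4, an inhibitor of mTOR signalling, rose by 1.48 (7.34 and 7.69 against 5.52, 6.15 and 6.45, limma adjusted p = 0.019) and Errfi1 by 1.09 (limma adjusted p = 0.0406). Of the genes named here, Per1 included, none passed without the first day 7 array.

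Genes of calcium release from the sarcoplasmic reticulum were slightly lower at day 7. Of 16 tested, 5 fell (31.2%, against 2.67% of all genes) and none rose, with a median of -0.29. Ryr2, the calcium release channel, read 11.06 and 11.17 at day 7 and 11.39, 11.47 and 11.48 in sham, and fell by 0.33 (SE 0.0757, limma adjusted p = 0.0295). Casq2, the calcium buffer of the reticulum, read 11.11 and 11.10 against 11.38, 11.35 and 11.37, and fell by 0.26 (SE 0.0554, limma adjusted p = 0.0221). Srl, sarcalumenin, fell by 0.41 (10.64 and 10.70 against 11.13, 11.16 and 10.96, limma adjusted p = 0.0149). These falls were small and larger than the spread between arrays. Camk2d, the calmodulin-dependent kinase that phosphorylates Ryr2, fell by 0.33 (limma adjusted p = 0.0371) and Trdn, triadin, by 0.36 (limma adjusted p = 0.0387). The pump Atp2a2 read 12.40 and 12.48 against 12.54, 12.50 and 12.58 (-0.10, limma adjusted p = 0.2), and its inhibitor Pln differed by -0.04 (limma adjusted p = 0.637).

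At the surface membrane, 2 of 11 tested genes for calcium and sodium transport fell (18.2%, against 2.67% of all genes). Slc8a1, the sodium-calcium exchanger that removes calcium after each beat, read 8.87 and 9.01 at day 7 and 9.78, 9.64 and 9.57 in sham, and fell by 0.72 (SE 0.109, limma adjusted p = 0.00575). Its other probe set fell by 1.14. Atp1b1, a subunit of the sodium pump, fell by 0.39 (limma adjusted p = 0.0459), and Cacna1c, the L-type calcium channel, read 9.59 and 9.68 against 9.95, 10.04 and 10.17 (-0.42, limma adjusted p = 0.0604). All 16 tested genes for potassium channels lay below 0, with a median of -0.30, and 2 fell (12.5%, against 2.67% of all genes). Kcnh2 and Kcnq1 encode channels of delayed rectifier currents. Kcnh2 read 7.42 and 8.05 against 8.48, 8.63 and 8.29 (-0.73, SE 0.181, limma adjusted p = 0.0382), and Kcnq1 read 6.98 and 7.41 against 7.73, 7.85 and 7.55 (-0.51, SE 0.136, limma adjusted p = 0.0489). Neither transport gene and neither potassium channel gene passed without the first day 7 array. Kcnj2, which sets the resting potential, read 7.70 and 8.01 against 7.87, 7.96 and 8.15, with overlapping groups (-0.13, limma adjusted p = 0.645).

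Of 17 tested genes of the intercalated disc and gap junctions 4 fell (23.5%, against 2.67% of all genes) and none rose, with a median of -0.29. Dsc2, a desmosomal cadherin, read 6.65 and 7.12 at day 7 and 7.80, 7.75 and 7.42 in sham, and fell by 0.78 (SE 0.168, limma adjusted p = 0.0243). Dsg2, its partner in the desmosome, read 7.23 and 7.33 against 7.76, 8.03 and 7.85, and fell by 0.60 (SE 0.151, limma adjusted p = 0.0395). Cdh2, N-cadherin, fell by 0.38 (limma adjusted p = 0.0463) and Nrap by 0.35 (limma adjusted p = 0.0405). Gja1, connexin 43, read 10.61 and 10.55 against 11.02, 10.87 and 10.91 and did not pass (-0.35, limma adjusted p = 0.0917). Of 31 sarcomere genes 2 fell (6.45%, against 2.67% of all genes; 24 of the 31 lay below 0): Tcap, and Nebl of the Z-disc (-0.48, limma adjusted p = 0.0294). Myh6, the main myosin of the adult mouse ventricle, read 12.02 and 12.11 against 12.22, 12.27 and 12.25 (-0.19, limma adjusted p = 0.0694). None of the tested genes of the sarcoplasmic reticulum, potassium channel and intercalated disc lists passed without the first day 7 array, nor without either day 1 sham array.

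**Figure D5:**
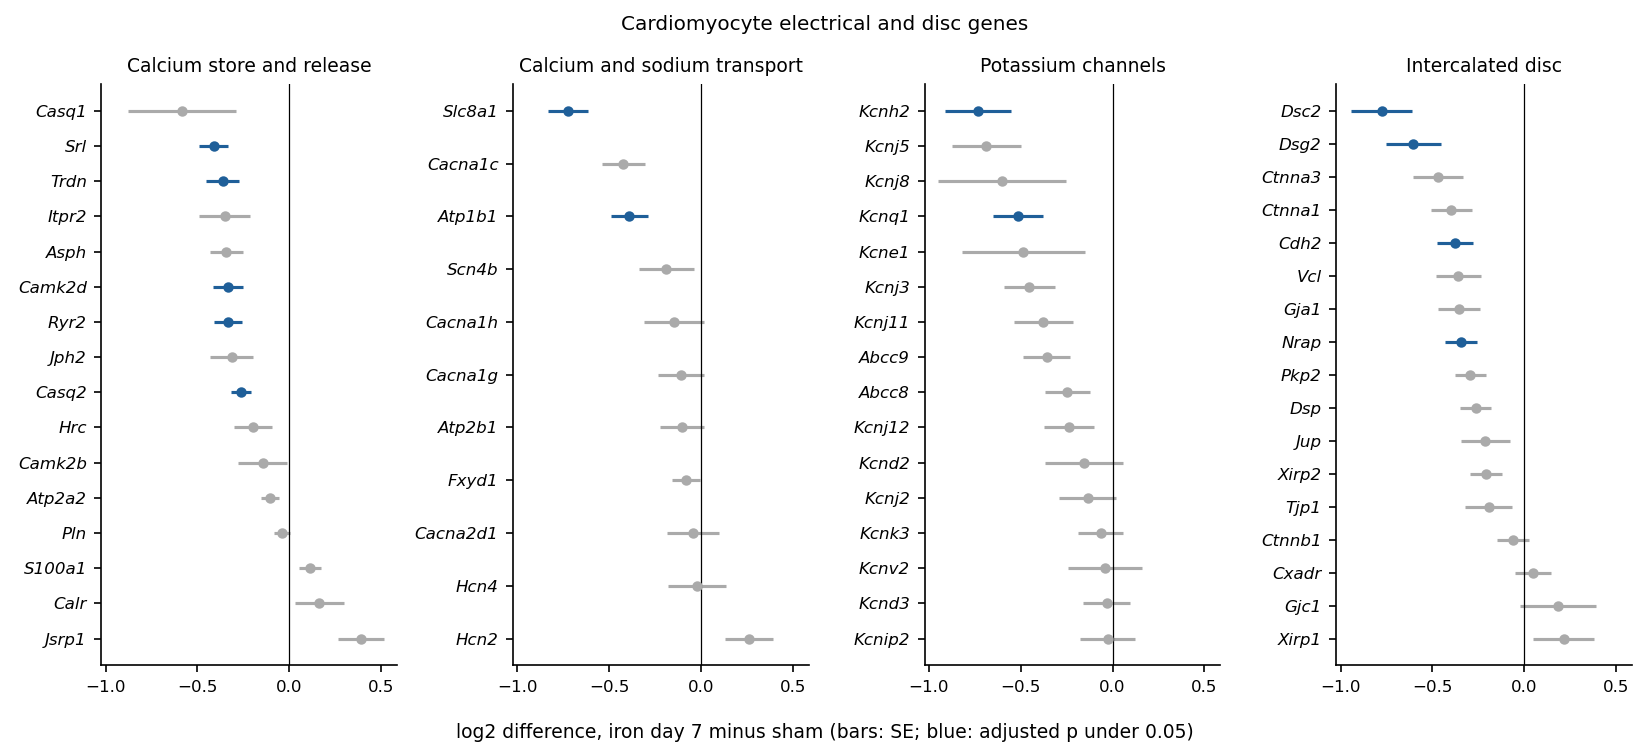
Difference in log2 signal between iron day 7 and sham (horizontal axis) for tested genes of calcium handling, channels and the intercalated disc, 1 row per gene. Points are differences and bars their standard errors, blue where the adjusted p was under 0.05 and grey where it was not. Slc8a1 lies at -0.72, Kcnh2 at -0.73 and Dsc2 at -0.78, and the pump Atp2a2 at -0.10.

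Adrenergic and growth signalling, contractile turnover and glucose use gave few calls, most of them falls. Akap6, which anchors protein kinase A near the nuclear envelope, read 9.09 and 9.14 at day 7 and 9.64, 9.71 and 9.65 in sham, and fell by 0.55 (SE 0.112, limma adjusted p = 0.0196). Pde4d, a cAMP phosphodiesterase, fell by 0.49 (limma adjusted p = 0.0281), and Erbb4, a receptor for neuregulin, fell by 0.94 (5.89 and 6.28 against 6.93, 7.21 and 6.92, limma adjusted p = 0.0149). Trim55, a ubiquitin ligase of the sarcomere also called MuRF2, fell by 0.49 (8.36 and 8.58 against 9.00, 8.96 and 8.91, limma adjusted p = 0.0149). Of 26 tested genes of glycolysis and pyruvate use 3 fell (11.5%, against 2.67% of all genes) and none rose. Hk2, a hexokinase, fell by 0.46 (8.75 and 9.05 against 9.37, 9.37 and 9.34, limma adjusted p = 0.029), Slc16a1, a lactate transporter, by 0.48 (limma adjusted p = 0.0297), and Slc2a4, the insulin-regulated glucose transporter, by 0.37 (limma adjusted p = 0.0481). Slc6a6, the taurine transporter, fell by 0.97 (8.35 and 7.79 against 9.22, 9.05 and 8.85, limma adjusted p = 0.019). Without the first day 7 array Slc6a6 alone of the genes in this group passed, and it did not without the second.

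Oxidative metabolism showed no call. None of 33 fatty acid oxidation genes (median -0.01), 21 citric acid cycle genes (median -0.09), 55 genes of oxidative phosphorylation (median 0.02) and 35 genes of mitochondrial ribosomes passed in limma, and 8, 1, 4 and 1 of them had an unadjusted p below 0.05. The smallest p among the fatty acid genes belonged to Acadl, an acyl-CoA dehydrogenase, which read 10.38 and 10.55 at day 7 and 10.72, 10.78 and 10.71 in sham (-0.27, limma adjusted p = 0.0644). Ndufa3, a subunit of complex I, differed by 0.33 (limma adjusted p = 0.0694).

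Genes of the response to DNA damage were near sham. None of 15 tested p53 targets passed in limma (median -0.05, 1 with an unadjusted p below 0.05). Gadd45a read 6.67 and 6.53 at day 7 and 6.14, 6.55 and 6.24 in sham (0.29, limma adjusted p = 0.17), with overlapping groups, and Mdm2 differed by -0.05 (limma adjusted p = 0.856). Of 27 tested DNA repair genes 2 fell (7.41%, against 2.67% of all genes). Prkdc, the catalytic subunit of DNA-dependent protein kinase, read 5.82 and 5.59 against 6.08, 6.16 and 6.21 and fell by 0.45 (limma adjusted p = 0.0371), and Atr, the kinase that senses replication stress, fell by 0.44 (limma adjusted p = 0.0399). None of the 27 passed without the first day 7 array.

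The extracellular matrix list gave calls in both directions: 1 of 37 tested genes rose (2.7%, near the 1.94% of all genes) and 3 fell (8.11%, against 2.67%). Fmod, fibromodulin, read 7.86 and 7.08 at day 7 and 6.16, 5.82 and 6.28 in sham, and rose by 1.38 (SE 0.217, limma adjusted p = 0.00691). Aspn, asporin, read 6.77 and 6.23 against 7.96, 7.95 and 7.42, and fell by 1.27 (SE 0.298, limma adjusted p = 0.0315). Hmcn1, hemicentin 1, read 8.42 and 7.80 against 9.15, 9.28 and 9.05, and fell by 1.05 (SE 0.197, limma adjusted p = 0.0149). The array holds 77 probe sets of Hmcn1, and all 77 lay below 0 and 54 passed. Lama2, the laminin chain around muscle cells, fell by 0.61 (limma adjusted p = 0.0149). Postn, periostin of activated fibroblasts, read 7.53 and 7.43 against 8.86, 8.71 and 8.20 (-1.11, limma adjusted p = 0.0573), and the collagens Col1a1 and Col3a1 differed by 0.06 and -0.20. Fmod, Aspn and Lama2 did not pass without the first day 7 array, nor Hmcn1, Aspn and Lama2 without the second. None of 29 genes of TGF-beta signalling passed in limma (4 with an unadjusted p below 0.05). Among the remaining 15 largest falls were Prex2 (-1.21, limma adjusted p = 0.0278), Nckap5 (-1.02), the phospholipase Pla2g4e (4.83 and 5.19 against 6.07, 6.39 and 5.56) and Gm7265 (-0.99).

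Day 7 was also compared with the other days after iron exposure, using the same day 7 arrays as the comparison with sham. Against iron day 3, 1477 genes passed (14.8%), 673 higher (6.75%) and 804 lower (8.07%). Against iron day 14, no gene passed (0%). The smallest limma adjusted p in that comparison was 0.103, and 1443 genes had an unadjusted p below 0.05 where chance alone gives 498.5. Without the second day 7 array 350 genes passed against day 14, and without the first iron day 1 array 37. Against the mean of the other iron days, 1047 genes passed (10.5%), 419 higher (4.2%) and 628 lower (6.3%). Without the first day 7 array no gene passed against the other iron days, and 143 passed against day 3.

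Macrophage and mesothelial genes were higher at day 7 than in the mean of the other iron days. Of the 16 macrophage markers 14 rose, and of the 8 mesothelial markers 7, where 4.2% of all genes rose. The macrophage score was 1.26 and 0.746 at day 7 and at most 0.233 in any other iron array. The mesothelial score was 1.49 and 0.764 at day 7 and 0.702 and 0.705 at day 28, so the second day 7 array lay near day 28. Vsig4 read 8.67 and 7.84 at day 7, and its means were 5.991, 5.621, 6.459 and 6.446 on iron days 1, 3, 14 and 28 and 6.85 in sham. It rose by 2.13 against the other iron days (limma adjusted p = 0.00287). Fcna rose by 2.27 (limma adjusted p = 0.00554), Timd4 by 2.18 (limma adjusted p = 0.00554), Ccl6 by 2.24 (limma adjusted p = 0.00554) and Ccl9, a related chemokine, by 2.24 (limma adjusted p = 0.00599). Hmox1 rose by 1.62 against the other iron days (limma adjusted p = 0.00275), and its means there lay between 5.494 and 5.710. Of 14 fibroblast markers 5 rose against the other iron days, where 4.2% of all genes did. The median of the list was 0.48, the opposite sign to its median against sham.

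Clock genes separated day 7 from day 3 more than from day 14. Against day 3, 10 of the 20 fell and 2 rose, where 8.07% of all genes fell and 6.75% rose. Ciart differed by -3.13 (limma adjusted p = 3.9e-05), Per3 by -2.12 and Dbp by -2.07 (limma adjusted p = 2.89e-05 each), and Arntl by 2.59 (limma adjusted p = 0.000416). Against day 14 the same genes differed by 0.06, -0.13, -0.33 and -0.16, and none passed. Per3 read lower at day 7 than at day 28 (mean 5.984), and Ciart higher (mean 4.391). SnoRNAs were as high or higher at days 14 and 28. Their score, formed like the marker score, was 0.658 and 0.592 at day 7, 0.878 and 0.806 at day 14 and 0.921 and 1.02 at day 28. Against day 14 their median difference was -0.20, with 23 of 27 below 0, and none passed. Against day 3, 8 of 27 rose, where 6.75% of all genes did, and none fell, with Snord49b at 0.79 (limma adjusted p = 0.00581) and Snora21 at 0.84 (limma adjusted p = 0.00434). Against the other iron days 3 of the 27 rose, where 4.2% of all genes did. Snord82 read 7.00, 8.91 and 9.26 in the iron day 3 arrays, so the first of them lay near sham and the others near day 7.

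The day 3 sham array stood apart from the day 1 sham arrays in some genes: 38 passed (0.381%), 32 of them higher in the day 3 array. Since day 3 has 1 sham array, assumed to vary like the other groups, the day and that array cannot be told apart. Cxcl13, a chemokine that draws B cells, read 6.63 and 7.00 in the day 1 sham arrays and 10.35 in the day 3 sham array, against 11.07 and 10.34 at iron day 7. Its difference from sham of 2.71 did not pass (SE 0.896, limma adjusted p = 0.0939). Cpa3, a mast cell protease, read 5.90, 6.35 and 7.89 in sham and 8.46 and 7.82 at day 7 (1.42, limma adjusted p = 0.0928). In both genes the day 3 sham array reached the range of day 7.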

How the data were processed

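Signals of 34760 probe sets were used for 15 arrays of left ventricular cardiomyocytes. The deposited values are log2 signals made by the authors, with a range of 0.234 to 13.01. MAS5 is named per the submitters' processing notes. Its role, and how background was corrected, is not given in the sources used here. Per the labels' protocols, biotinylated cRNA was prepared from TRIzol RNA. Probe sets with several gene symbols (1321) or none (11799) in the platform annotation were left out, and for each gene the probe set with the highest mean over 15 arrays was kept. Genes with a mean of at least 5.5125, the 50th percentile, were tested. Groups came from the array titles. limma 3.58.1 in R 4.3.3 fitted 6 group means (sham as 1 group) with eBayes (intensity trend on), leaving 9 residual degrees of freedom. Sham days were compared in a fit with 7 groups. Python 3.11.15 and matplotlib 3.10.9 made the summaries and plots.

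Genes were named by rule: the 15 largest differences in each direction from sham among passing genes with no overlap between the groups' arrays, every clock gene, up to 4 passing genes of each other list by p (or the 1 smallest p), and the 8 largest in each direction for other comparisons. Other members given with values were chosen after their values were seen. The 62 gene lists (1265 symbols, 970 tested), the comparison and its members were chosen with earlier results of these data known, so list counts are to be read against the share of all genes tested (1.94% higher, 2.67% lower) and no list was tested. Alternatives were another scaling, filter, weighting, control, replicate block, probe set choice and each array left out. On simulated data for iron day 7 minus sham (9969 genes) the fit called 93 of 100 genes shifted by 1, 51 of 100 shifted by 0.5 and 3 of 9769 unshifted. The simulated errors were normal and independent, with each gene's own mean and fitted spread. Shifts shared by many genes of an array were not simulated, so these rates do not cover them.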

Additional observations from a re-analysis of the deposited data

Results flagged for a closer look

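Day 7 was compared directly with other days after the same exposure: 1477 genes passed against iron day 3 and 1047 against the mean of the other iron days. Against the other iron days, 7 of 8 mesothelial markers, 14 of 16 macrophage markers, 5 of 8 MHC class II genes and 10 of 20 clock genes passed, as did 10.5% of all genes. The class II score was 1.28 and 0.497 at day 7 and 0.735 and 0.622 at day 28. The mesothelial score was 1.49 and 0.764 at day 7 and 0.702 and 0.705 at day 28. Against iron day 14 no gene passed, and so none of the clock, macrophage, mesothelial or class II genes (limma, with 1443 of the 9969 genes at an unadjusted p below 0.05). The lists still differed in size of difference. The median against day 14 was -0.11 for clock genes (2 of 20 at an unadjusted p below 0.05) and -0.04 over all genes. It was 1.10 for macrophage markers (14 of 16), 1.19 for mesothelial markers (7 of 8) and 1.09 for class II genes (6 of 8). The mean centred log2 signal of the 20 clock genes was -0.412 and -0.286 in the day 7 arrays and -0.347 to -0.233 in those of days 14 and 28, against 0.081 to 0.269 in those of days 1 and 3, so the difference of the clock genes from the other iron days lies with days 1 and 3. All of these comparisons share the day 7 arrays, and without the first of them no gene passed against the other iron days.

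Higher at day 7 than on the other iron days were Fcna (2.27), Timd4 (2.18), Ccl9 (2.24), Ccl6 (2.24), Vsig4 (2.13), Ms4a6c (1.94), Wfdc18 (1.92) and Msr1 (1.91), as log2 differences. Lower were the lipase gene Pla2g4e (-1.01), the neuregulin receptor gene Erbb4 (-1.04), Gm7265 (-0.91), Amy1 (-0.89), A630072M18Rik (-0.88), Syde2 (-0.87), Cntn5 (-0.86) and the clock output gene Tef (-0.86). Of these, Ccl9, Ms4a6c, Wfdc18, Amy1 and Cntn5 did not pass against sham. Timd4 and Msr1 were tested only because day 7 was high. No group had the 4 to 10 arrays that a search for single outlying arrays needs.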

How the results depend on the processing

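For the probe set kept, none of the 114 named genes called against sham changed sign in any alternative. Nor did any of the 32 named results of the other comparisons. Other probe sets of Gas5 (-0.87 to -0.18) and a dimmer one of Rps12 (-0.09) lay on the other side of 0. Of the 114, 16 kept their call in every alternative that could be run on them. The 459 calls against sham became 243 with array weights, 274 with the iron day 28 arrays averaged as 1 (chosen after seeing the data, because these arrays were the closest pair), 1111 after median centring, 45 with only the compared arrays in the fit, where fewer degrees of freedom remain, and 124 with the day 3 sham array alone as control. They ranged from 46 to 555 when 1 array was left out. Leaving out 1 array gave 143 to 1723 calls against iron day 3 (720 without its second array), 0 to 350 against iron day 14 (2 without its first array, 37 without the first iron day 1 array) and 0 to 1236 against the other iron days (671 and 507 without the first and second iron day 28 array). Against the other iron days array weights gave 367 calls and the averaged day 28 arrays 564. Clock genes called fell from 11 to 7 with only the compared arrays and to 6 with the day 3 sham array alone, and ranged from 6 to 11 with 1 array left out. The snoRNAs called fell from 21 to 9 with the day 3 sham array alone, and ranged from 11 to 22. Apart from the calls lost to fewer arrays, the cause was not tested.

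With the replicate number as a block, which leaves out the day 3 sham array because it has no number, 361 genes passed against sham, 1249 against day 3, 3 against day 14 and 983 against the other iron days, with 10 clock genes and 19 snoRNAs. Whether the numbers pair the arrays could not be decided. Deviations of arrays with the same number correlated with a median of 0.0616 (31 pairs, 11 above 0.1). Those of arrays with other numbers had a median of -0.029 (50 pairs, 14 above 0.1). Where a group holds no more than a pair of arrays, their deviations from the group mean are equal and opposite. The same-number and other-number correlations then mirror each other, so they cannot tell whether the numbers pair the arrays. Of the alternatives for single named genes, 4043 of 4875 values stayed on the same side of the threshold (called or not), 785 lost a call and 47 gained one. The small number of arrays limits all of these counts, and low signals are the least certain.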

Other observations

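Genes of growth signalling and of splicing gave further calls against sham that no comparison above describes. Of 28 tested genes of insulin and IGF signalling 2 rose (7.14%, against 1.94% of all genes) and 3 fell (10.7%, against 2.67%). Igfbp6, a binding protein of IGF-II, read 9.19 and 8.52 at day 7 and 7.33, 7.06 and 8.00 in sham and rose by 1.39 (limma adjusted p = 0.0177). Irs2, an adaptor of the insulin receptor, rose by 1.10 (7.65 and 6.79 against 6.23, 5.98 and 6.15, limma adjusted p = 0.0438), while the receptor gene Insr fell by 0.42 (limma adjusted p = 0.0398) and Rptor, a subunit of mTORC1, by 0.35 (limma adjusted p = 0.0464). Of 36 tested splicing factor genes 2 fell (5.56%, against 2.67% of all genes), and 32 lay below 0 with a median of -0.19. Rbm20, the splicing factor of titin, read 7.84 and 8.07 against 8.51, 8.70 and 8.44 and fell by 0.59 (limma adjusted p = 0.0209), and Celf1 fell by 0.35 (limma adjusted p = 0.0392).

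Among other lists, Angpt1, a ligand of the endothelial receptor TIE2, fell by 0.80 (6.23 and 6.85 against 7.37, 7.56 and 7.09, limma adjusted p = 0.0468). Cdk4, a kinase of the cell cycle, fell by 0.36 (limma adjusted p = 0.031), and Bcl2l11, which encodes the pro-apoptotic protein BIM, rose by 0.60 (6.60 and 6.44 against 5.78, 5.90 and 6.07, limma adjusted p = 0.0301). Pam, an atrial marker and peptide-processing enzyme, fell by 0.48 (limma adjusted p = 0.0372), and Plin1, the lipid droplet protein of adipocytes, rose by 0.47 (limma adjusted p = 0.0382). None of the 30 proteasome genes, 17 histone genes and 19 genes of cholesterol and lipid synthesis passed in limma, and 2 in each list had an unadjusted p below 0.05. None of the calls named in these paragraphs held without the first day 7 array.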
